A study of Mus musculus with 20 samples.

Results

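The 10 calcium handling genes described here carry the cycle of calcium that drives each heartbeat, and they were chosen by name: Atp2a2, Ryr2, Pln, Casq2, Slc8a1, Camk2d, Jph2, Trdn, Hrc and Asph. All 10 were found, by the mouse symbol of the Ensembl gene, among the 15956 genes of the deposited count table, and all 10 were expressed highly enough to be tested among 13991 genes. The counts come from left ventricular tissue of 20 male mice, labelled 18 months old (the methods of the study give a younger age), with 5 mice on each of 4 diets. The diets were a control with normal protein (NP), the same with protein reduced (LP), high fat with normal protein (HF), and high fat with protein reduced (HF + LP), so NP served as the control for both LP and HF, and HF for the effect of low protein under high fat. Each library was made from the whole tissue of 1 mouse by QuantSeq, which reads the 3′ end of polyadenylated RNA once per transcript, so that counts of different genes can be compared without division by length.

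In a heart muscle cell, calcium that enters through channels in the surface membrane opens the ryanodine receptor of the sarcoplasmic reticulum, the internal calcium store, and the released calcium starts contraction. The calcium pump SERCA returns it to the store, where it is held by binding proteins, and the sodium-calcium exchanger removes the remainder from the cell. Loss of pump activity and leak through the ryanodine receptor are well known in failing hearts.

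None of the 10 genes differed between diets at an adjusted p under 0.01. The largest difference was in Ryr2, which encodes the ryanodine receptor: its mean count was 14433 ± 3051 (SD, n = 5) in NP and 9215 ± 1732 (SD, n = 5) in HF, a log2 fold change of -0.65 ± 0.19 (SE) with an adjusted p of 0.104 (edgeR). The 2 most abundant genes, the pump Atp2a2 and its inhibitor Pln, ranged from 60955 to 96152 and from 49002 to 80864 over the 20 mice. Counts here are normalized counts, that is, raw counts divided by the size factor of the library.

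The libraries held 12559607 to 23331907 counts. The 10 cardiomyocyte markers examined, among them Myh6, Tnnt2 and Myl2, were all listed and abundant in every library, with summed normalized counts of 652188 to 889604 in HF, 677980 to 964845 in HF + LP, 590542 to 960637 in LP and 847092 to 1022380 in NP. The 6 atrial markers, which include Sln, Myl7 and Nppa, were listed too, and their sum ranged from 1002 to 259159 across mice although the tissue is labelled left ventricular. LP animal 13 stood apart, with a median correlation of 0.908 to the other LP libraries, against 0.944 to 0.979 for each other library within its diet. It gave the lowest count of the 20 mice for 6 of the 10 genes, and it also had the highest atrial sum, 259159, and the lowest cardiomyocyte sum, 590542. The part of these in its low counts was not tested. In tissue of mixed cells, fewer cardiomyocytes and less RNA per cardiomyocyte cannot be told apart.

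For 7 of the 10 genes RefSeq gives a promoter sequence (GRCm38.p6), and the 250 bases upstream of the start are shown for 4 of them: Ryr2 because it had the largest difference, Pln because it is among the most abundant RNAs of the heart, and Hrc and Casq2 because their counts followed each other across mice. Hrc followed Jph2 as closely (r = 0.83) as Casq2 (r = 0.81), and the windows of Jph2, Camk2d and Slc8a1 are not shown. Atp2a2, Trdn and Asph are named only. Sequences are written 5′ to 3′ on the strand of the gene. Capitals mark the letters GATAA or GGGCGG on either strand, TATAAA on the strand of the gene, or a MEF2 motif on either strand.
Ryr2, chr13:12106946-12107195, minus strand: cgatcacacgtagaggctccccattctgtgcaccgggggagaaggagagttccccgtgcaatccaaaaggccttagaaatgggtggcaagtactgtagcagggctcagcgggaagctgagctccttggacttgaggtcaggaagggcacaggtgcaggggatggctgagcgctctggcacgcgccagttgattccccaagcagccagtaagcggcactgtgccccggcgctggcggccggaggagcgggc
Pln, chr10:53337436-53337685, plus strand: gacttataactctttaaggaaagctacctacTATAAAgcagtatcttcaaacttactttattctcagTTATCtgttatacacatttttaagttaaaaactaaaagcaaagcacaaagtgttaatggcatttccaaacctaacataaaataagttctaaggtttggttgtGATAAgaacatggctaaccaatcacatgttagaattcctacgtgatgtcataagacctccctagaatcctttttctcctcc
Hrc, chr7:45335019-45335268, plus strand: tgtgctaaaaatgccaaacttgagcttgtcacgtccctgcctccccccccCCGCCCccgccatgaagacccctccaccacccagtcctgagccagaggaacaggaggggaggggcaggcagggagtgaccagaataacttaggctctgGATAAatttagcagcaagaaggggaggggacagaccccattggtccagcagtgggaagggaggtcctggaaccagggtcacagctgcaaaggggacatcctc
Casq2, chr3:102086165-102086414, plus strand: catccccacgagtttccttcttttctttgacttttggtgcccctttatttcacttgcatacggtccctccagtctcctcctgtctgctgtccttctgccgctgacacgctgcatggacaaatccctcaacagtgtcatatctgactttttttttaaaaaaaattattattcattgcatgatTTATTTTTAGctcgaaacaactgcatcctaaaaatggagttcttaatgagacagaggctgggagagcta
The windows differed in their base content. The Pln window had 32.8% G and C, less than all but 2.92% of the 32851 windows of this length, while the Ryr2 window had 63.2% and the median window 52.4%. Pln held GATAA at 2 places, a motif present in 22.6% of all windows, and TATAAA once, which 7.59% of windows have. The Casq2 window held 1 match to the MEF2 motif, found in 2.92% of all windows, and Hrc held 1 match each to GATAA and GGGCGG, the second present in 32.7% of windows. The Ryr2 window held none of these 4 motifs, which says only that the letters do not occur in it.

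Pump and inhibitor stood far above the other members in abundance. Atp2a2 (ENSMUSG00000029467, chr5:122453513-122502225, GRCm38) encodes SERCA2, the pump that refills the store, and with a mean of 79784 normalized counts it ranked 17 among all tested genes. Pln (ENSMUSG00000038583, chr10:53337667-53345987) encodes phospholamban, which holds the pump back until it is phosphorylated, and ranked 23 with a mean of 68964. Next came the release channel Ryr2 with 11925, the store proteins Casq2 with 11618, Trdn with 11225 and Hrc with 10007, then Asph with 3848, Jph2 with 1628 and Camk2d with 1542. Slc8a1 was last, with a mean of 72.3 and rank 9185. Ryr2, Casq2 and Trdn are neighbours in this order whose ranges over the 20 mice overlapped widely. Together the 10 genes took 1.20% of all counts.

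**Figure D1:**
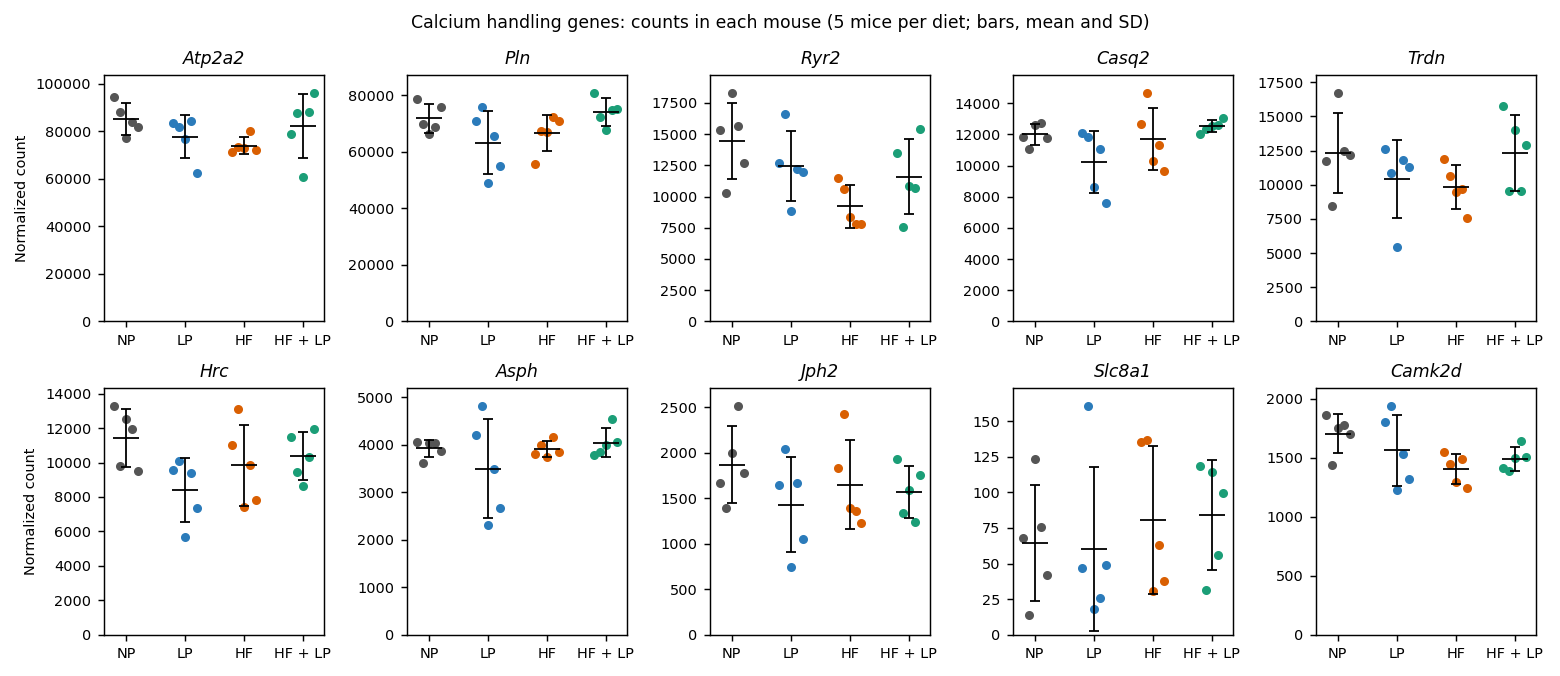
Normalized counts of the 10 calcium handling genes in each mouse (points) on the 4 diets, with the mean and SD of 5 mice; every vertical axis starts at 0. In each pair of diets compared, the points of every gene overlap, and LP animal 13 gives the lowest point of 6 genes.

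For the high fat diet, HF was compared with NP. Of the 10 genes 0 passed an adjusted p under 0.01 with a mean count over 50 in edgeR, against 0.264% of all tested genes, and DESeq2 also called 0. At an unadjusted p under 0.05 there were 2, Ryr2 and Camk2d, both lower in HF, against 13.1% of all genes, and DESeq2 gave 2 as well. No member had groups that did not overlap, which 5.67% of all genes had. Of the 10 fold changes 9 were below 0, with a median of -0.19 on the log2 scale, against a median of -0.00108 over all genes. Without HF animal 3 the members' median was -0.13, with 7 below 0. When libraries were scaled to the summed cardiomyocyte markers, the median of all genes moved to 0.30 and that of the 10 genes to 0.0976. Of the 10, 8 then had fold changes above 0. The scaling shifts all genes of a library alike, so it leaves the members' place among all genes nearly as it was. Other markers moved with this comparison. All 8 macrophage markers were higher in HF, 6 with an unadjusted p under 0.05 and 1 called, and their sum was 4791 to 6429 in NP and 6501 to 8734 in HF, without overlap. All 7 fibroblast markers were higher, with sums of 15848 to 19317 in NP and 17745 to 22898 in HF. The mitochondrially encoded share of counts was 41.3% to 47.1% in NP and 38.1% to 39.8% in HF, also without overlap. All 6 atrial markers were higher in HF (median log2 fold change 1.25, 0 with an unadjusted p under 0.05). Their sums were 2577 to 59706 in NP and 1908 to 201836 in HF. All 5 erythroid markers (median 0.58, 1 at that threshold) and 6 of the 7 endothelial markers (0) were higher too. In the other direction, 9 of the 10 cardiomyocyte markers were lower in HF, 4 with an unadjusted p under 0.05, with a median log2 fold change of -0.24, and 5 of the 6 mural cell markers were lower, 2 at that threshold, with a median of -0.47. Of the 5 adipocyte markers 4 were lower, 0 at that threshold. The part of all these lists in the members' differences was not tested.

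Ryr2 (ENSMUSG00000021313, chr13:11553102-12106945) encodes the channel through which the store releases calcium. In NP mice its counts were 10311, 12654, 15286, 15610 and 18302, and in HF mice 7777, 7788, 8386, 10633 and 11494. The 3 lowest HF mice lay under every NP mouse, and 2 HF mice lay above the lowest NP mouse. The difference was -0.65 on the log2 scale (95% interval -1.05 to -0.24), with an unadjusted p of 0.00327 and an adjusted p of 0.104 over all genes (edgeR). LP mice had counts of 8802, 11966, 12168, 12682 and 16646, and HF + LP mice of 7595, 10684, 10840, 13482 and 15391. Both of these groups overlapped NP and HF. Scaled to cardiomyocyte markers, the difference was -0.35 on the log2 scale (adjusted p = 0.189, edgeR), where the median of all genes was 0.30. With the library-name number in the model the difference was -0.65 (adjusted p = 0.139, edgeR).

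Other measures were lower in the same HF libraries. The nuclear RNA list, 6 long noncoding RNAs led by Malat1 and Neat1, summed to 31552, 43770, 55083, 71303 and 102548 normalized counts in NP and to 20816, 23598, 27038, 49174 and 54574 in HF. All 6 had fold changes below 0 in HF, and 1, Neat1, was called (log2 fold change -1.20, adjusted p = 0.000389, edgeR). Ryr2 has a long transcript, with 16814 bases in its longest protein-coding form, longer than 99.8% of the 9735 genes that have a protein-coding transcript and a mean over 50. Of the 254 such genes with a transcript over 10 kb, 199 (78.3%) were lower in HF, with a median log2 fold change of -0.19, against 48.7% and 0.00607 for the 9481 shorter genes. Across the 20 mice the log2 CPM of Ryr2 followed that of Malat1 with r = 0.80 (rho = 0.80) and that of Ttn, the longest muscle transcript and a cardiomyocyte marker, with r = 0.93 (rho = 0.91). With each diet centred on its mean these were 0.85 and 0.94. Trdn, whose longest protein-coding form has 4514 bases, followed Malat1 with r = 0.88 (rho = 0.79). These are values of the same libraries, and the part of nuclear RNA or transcript length in the Ryr2 difference was not tested.

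**Figure D2:**
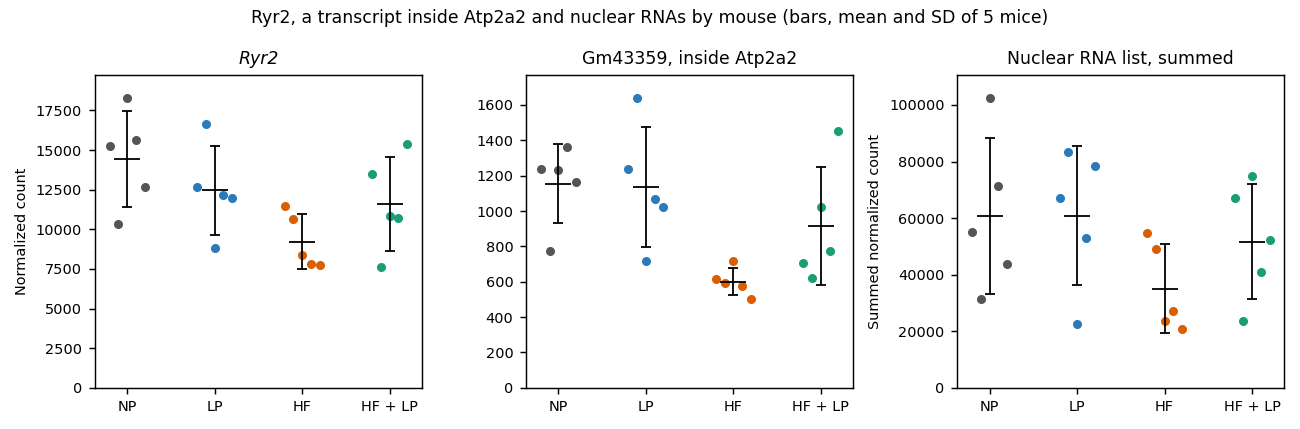
Normalized counts of Ryr2, of Gm43359 (a transcript annotated inside Atp2a2) and the summed normalized counts of 6 nuclear RNAs in each mouse (points), with the mean and SD of 5 mice per diet; axes start at 0. The 5 HF mice lie between 7777 and 11494 for Ryr2, and between 502 and 717 for Gm43359, where the lowest NP mouse has 775.

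Camk2d (ENSMUSG00000053819, chr3:126596302-126846326) encodes the calcium-calmodulin kinase that phosphorylates both the ryanodine receptor and phospholamban. Its counts were 1436, 1701, 1751, 1775 and 1866 in NP and 1245, 1292, 1449, 1492 and 1550 in HF. Only the lowest NP mouse reached down among the HF mice. The log2 fold change was -0.28 ± 0.12 (SE), with an unadjusted p of 0.0265 and an adjusted p of 0.292 (edgeR). Scaled to cardiomyocyte markers it became 0.0187, where the median of all genes was 0.30.

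Atp2a2 had counts of 77360 to 94579 in NP and 71152 to 80009 in HF. Only HF animal 4, the highest HF mouse, reached into the NP range. The log2 fold change was -0.20 (95% interval -0.44 to 0.0345, adjusted p = 0.486, edgeR). Trdn, which encodes triadin, the anchor between store proteins and the release channel, had 8470 to 16718 counts in NP and 7565 to 11889 in HF, with a log2 fold change of -0.32 (95% interval -0.76 to 0.11). For Casq2 and Asph the differences were nearest to 0, at -0.0345 (95% interval -0.30 to 0.23) and -0.00418 (95% interval -0.30 to 0.29) on the log2 scale. Pln at -0.11, Jph2 at -0.18 and Hrc at -0.21 had intervals that included 0, and Slc8a1 alone was above 0, at 0.30 with an interval from -0.91 to 1.51. That interval is the widest of the 10.

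**Figure D3:**
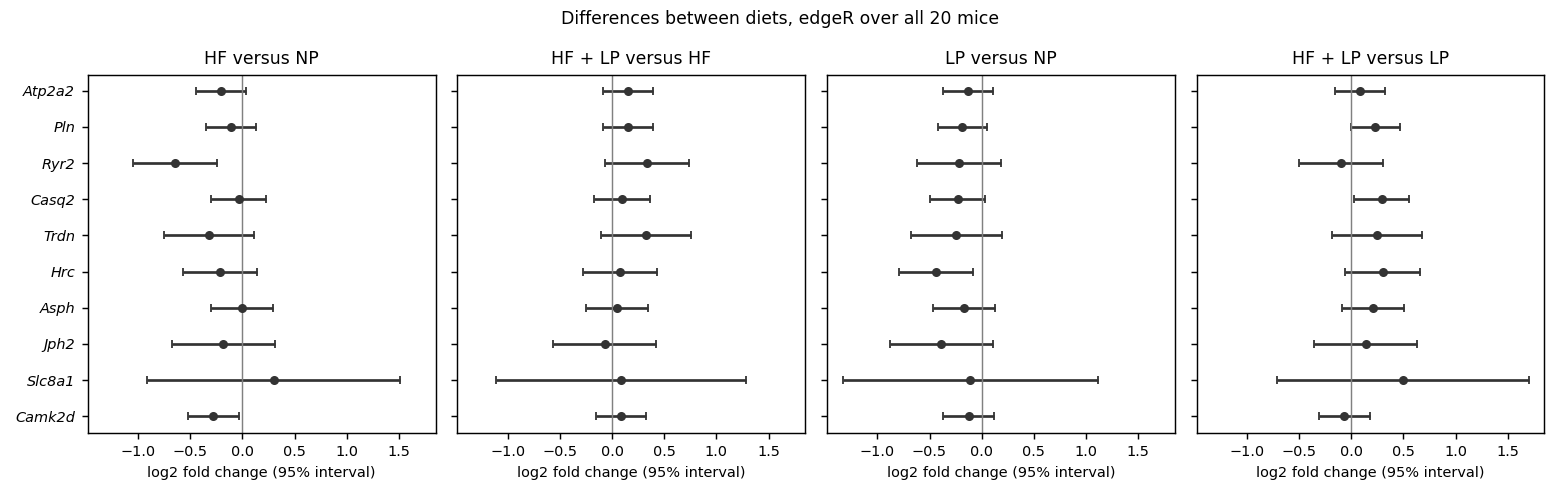
Log2 fold changes of the 10 genes with their 95% intervals (edgeR, all 20 mice) in 4 comparisons of diets; the vertical line marks 0. Ryr2 and Camk2d in HF versus NP, Hrc in LP versus NP and Casq2 in HF + LP versus LP have intervals that leave out 0, and the interval of Slc8a1 is the widest in each panel.

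Protein restriction under high fat was read from HF + LP against HF. No gene of the 10 was called by edgeR or DESeq2, and edgeR called no gene at all (0% of those tested), where DESeq2 called 16 of all genes. At an unadjusted p under 0.05 there were 0 members by either tool, against 4.84% of all genes, and 0 with groups that did not overlap, against 1.18%. Of the 10 fold changes 9 were above 0, with a median of 0.0904 against 0.0171 for all genes, and with libraries scaled to cardiomyocyte markers the medians were 0.00674 and -0.10. The members' median moved with single HF mice: it was 0.0428 without HF animal 5 (8 of 10 above 0), 0.0543 without HF animal 3 (7 of 10) and 0.17 without HF animal 2 (10 of 10). All 6 nuclear RNAs were higher in HF + LP, as were 197 of the 254 genes with a transcript over 10 kb. Higher too were all 5 erythroid and 7 of the 10 cardiomyocyte markers. Lower were all 8 macrophage markers (2 with an unadjusted p under 0.05), all 7 fibroblast (2), all 6 atrial (0) and all 5 adipocyte markers (0). The medians of the atrial and adipocyte markers were -1.36 and -2.20 on the log2 scale. The part of these lists in the members' values was not tested. The largest member differences were Ryr2, at 0.33 (95% interval -0.0715 to 0.74), and Trdn, at 0.33 (95% interval -0.11 to 0.76). HF served as the reference here and as the treated group against NP, so the 2 comparisons share its 5 mice.

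Protein restriction on the control fat content gave lower means for all 10 genes in LP than in NP. Again 0 were called by edgeR or DESeq2, and edgeR called 0% of all genes, where DESeq2 called 3. Hrc alone had an unadjusted p under 0.05 with either tool, against 7.23% of all genes, and 0 had groups that did not overlap, against 0.786%. The median fold change was -0.20 on the log2 scale, against 0.0231 for all genes. Without LP animal 13 the median was -0.11, 9 of the 10 were below 0, and no member had an unadjusted p under 0.05. Without LP animal 5 the median was -0.30 and there were 5 such members, and without LP animal 20 there were 0. Scaled to cardiomyocyte markers, the members' median was 0.0175 and that of all genes 0.29. The 10 cardiomyocyte markers had lower values in LP as well, all 10 of them, with a median log2 fold change of -0.20 and 0 with an unadjusted p under 0.05. Markers of other cell types had higher values in LP: all 5 adipocyte markers (2 with an unadjusted p under 0.05), all 6 atrial markers (1 at that threshold), the 3 tested lymphocyte markers (2 at that threshold) and all 5 erythroid markers (1 at that threshold). Their part in the members' values was not tested.

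Hrc (ENSMUSG00000038239, chr7:45335290-45338974) encodes the histidine-rich calcium binding protein of the store. Its counts were 9500, 9771, 11969, 12536 and 13274 in NP and 5683, 7334, 9393, 9588 and 10087 in LP. The groups overlapped at 2 mice from each. The log2 fold change was -0.44 ± 0.17 (SE), with an unadjusted p of 0.0182 and an adjusted p of 0.625 (edgeR). Without LP animal 13 it was -0.33. In HF the counts of Hrc were 7419, 7796, 9840, 10992 and 13135, and in HF + LP 8624, 9443, 10295, 11492 and 11968, and both ranges overlapped those of LP and NP.

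The spread was widest in LP. For 8 of the 10 genes the SD of the log2 counts was larger in LP than in any other diet, and the median over 10099 genes was also highest there, at 0.276 against 0.235 in HF + LP, 0.214 in HF and 0.195 in NP. Asph, which encodes aspartate beta-hydroxylase and, from the same locus, junctin, showed the contrast. Its counts were 3628, 3880, 4031, 4049 and 4055 in NP, and 2310, 2669, 3500, 4197 and 4816 in LP. The LP spread was the largest for 5 of the 10 genes when LP animal 13 was left out. The SD of the log2 counts of Asph was 0.441 in LP (0.368 without LP animal 13), against 0.0687 in NP, 0.0628 in HF and 0.103 in HF + LP. The means did not differ beyond that spread, with a log2 fold change in LP of -0.17 (95% interval -0.47 to 0.13).

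High fat on low protein was read from HF + LP against LP. By edgeR 0 of the 10 genes were called, against 0.1% of all genes, and DESeq2 called 0. At an unadjusted p under 0.05 there was 1 member, Casq2, against 15.9% of all genes, and DESeq2 gave 2. No member had groups that did not overlap, which 1.87% of all genes had. Of the 10 genes 8 had fold changes above 0, with a median of 0.22 on the log2 scale, against -0.0296 for all genes. Without LP animal 13 that median was 0.0841, 7 were above 0 and 0 members had an unadjusted p under 0.05, and without LP animal 20 the median was 0.14. In the same comparison all 5 adipocyte markers were lower, each with an unadjusted p under 0.05, all 6 atrial markers were lower, 2 of them at that threshold, and all 6 nuclear RNAs were lower, with Neat1 called (log2 fold change -0.89, adjusted p = 0.009, edgeR). Their part in the members' values was not tested.

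Casq2 (ENSMUSG00000027861, chr3:102086415-102146514) encodes calsequestrin, the main calcium buffer inside the store. In HF + LP its counts were 12000, 12364, 12538, 12630 and 13061, the tightest group of any member, and in LP they were 7607, 8628, 11034, 11814 and 12098. The highest LP mouse lay just inside the HF + LP range, and the other 4 lay below it. The log2 fold change was 0.29 ± 0.13 (SE), with an unadjusted p of 0.033 and an adjusted p of 0.267 (edgeR). Without LP animal 13 it was 0.23. In NP the counts ran from 11078 to 12728 and in HF from 9659 to 14669.

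The interaction asks whether low protein changed expression differently under high fat than without it. No member was called by edgeR or DESeq2, and 0% of all genes were by edgeR, and 0 by DESeq2. Pln and Hrc had an unadjusted p under 0.05, which is 2 of 10 against 7.17% of all genes. The interaction of Pln was 0.34 on the log2 scale (95% interval 0.0053 to 0.67, adjusted p = 0.69, edgeR), and became -0.00314 when libraries were scaled to cardiomyocyte markers. That of Hrc was 0.51 (95% interval 0.0114 to 1.02, adjusted p = 0.689, edgeR), with 0.20 under the same scaling and 0.40 without LP animal 13. All 10 interactions were above 0, with a median of 0.32 against -0.00602 for all genes, and without LP animal 13 there were 9 above 0, with a median of 0.26. The same scaling to cardiomyocyte markers put 5 above and 5 below 0, with a median of 0.00352 against -0.39 for all genes. Marker lists moved with the interaction too. All 10 cardiomyocyte markers had interactions above 0, with a median of 0.31, and 1 had an unadjusted p under 0.05, and all 6 nuclear RNAs were above 0. Below 0 were all 8 macrophage markers (2 at that threshold), all 7 fibroblast markers (1), all 6 atrial markers (1) and all 5 adipocyte markers (4). Their part in the members' interactions was not tested. In a test of any difference among the 4 diets 0 members were called by either tool, against 0.479% of all genes by edgeR. There Ryr2 alone had an unadjusted p under 0.05, as did 15.9% of all genes, and its adjusted p was 0.228 (edgeR).

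The balance of Pln to Atp2a2 RNA was also read as the ratio of their counts within each library, which needs no scaling. It compares 3′ end counts of 2 RNAs and gives no protein levels. The ratio was 0.793, 0.822, 0.831, 0.858 and 0.926 in NP, and 0.64, 0.778, 0.847, 0.879 and 0.927 in LP. In HF it was 0.785, 0.904, 0.915, 0.92 and 0.979, and in HF + LP 0.781, 0.827, 0.849, 1.02 and 1.108. The Pln count therefore exceeded the Atp2a2 count in 2 of the 20 mice, both on HF + LP, and the 4 groups overlapped. The means were 0.901 ± 0.071 in HF, 0.918 ± 0.141 in HF + LP, 0.846 ± 0.0504 in NP and 0.814 ± 0.112 in LP (SD, n = 5 each). Two-sided exact permutation tests of the log2 ratio, which cannot go below p = 0.00794 with 5 against 5, gave p = 0.222 for HF against NP, p = 0.857 for HF + LP against HF, p = 0.651 for LP against NP and p = 0.246 for HF + LP against LP.

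**Figure D4:**
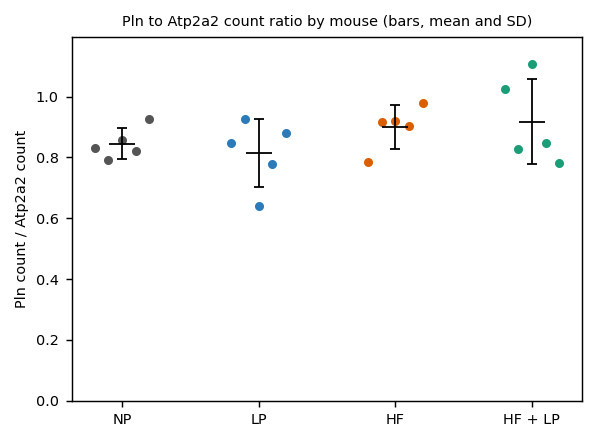
Ratio of the Pln count to the Atp2a2 count in each mouse (points) on the 4 diets, with the mean and SD of 5 mice; the axis starts at 0. The ratio lies between 0.64 and 1.108 in all 20 mice, and 2 HF + LP mice lie above 1.

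The genes differed in how much mice of the same diet varied. Atp2a2 and Pln varied little, with a within-diet SD of 0.168 and 0.165 on the log2 scale, and about 22% of their 500 neighbours in abundance were less variable. Jph2 (junctophilin, which ties the store to the surface membrane) had an SD of 0.411, above 89.4% of its neighbours. Trdn had an SD of 0.364 and Ryr2 of 0.327. Slc8a1, the sodium-calcium exchanger NCX1, had the largest SD, 1.02, above 97.4% of its neighbours.

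Slc8a1 (ENSMUSG00000054640, chr17:81373105-81738377) was counted only 12 to 160 times in a library. Its normalized counts were 14, 42.0, 67.8, 75.7 and 123 in NP and 17.8, 25.9, 46.8, 49.1 and 160.5 in LP. They were 30.7, 37.5, 62.8, 135 and 137 in HF and 31.3, 55.8, 99.8, 114 and 118 in HF + LP. Every group spanned most of the range of the others. Across the 20 mice Slc8a1 followed Malat1 with r = 0.78 (rho = 0.75) and, centred on diet, 0.88. The r with Malat1 was 0.88 for Trdn, 0.68 for Jph2, 0.65 for Camk2d, 0.24 for Pln and -0.16 for Atp2a2. The longest annotated transcript of Slc8a1, of 18464 bases, is longer than that of 99.9% of genes. A low count at the annotated 3′ end does not show how much of the transcript was present.

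Across the 20 mice the genes mostly varied together. Of the 45 pairs 43 had a positive correlation of log2 CPM, with a median r of 0.55, and 0.56 when each diet was centred on its mean. Without LP animal 13 the median was 0.46. The closest pairs were Hrc with Jph2 (r = 0.83) and Casq2 with Hrc (r = 0.81), followed by Pln with Asph (r = 0.79). Atp2a2 stood apart: its correlation was 0.54 with Pln and 0.46 with Hrc, but -0.0192 with Trdn and -0.18 with Slc8a1. All points share the libraries and their scaling, so these values describe the libraries and carry no test.

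**Figure D5:**
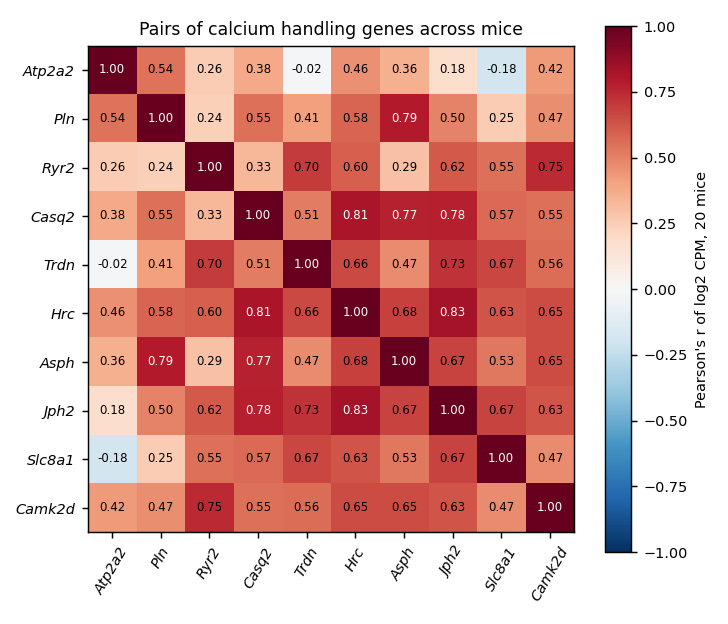
Pearson's r of log2 CPM over 20 mice for each pair of the 10 genes; the colour scale runs from -1 to 1. Of the 45 pairs 43 are positive, and the row of Atp2a2 holds both negative values.

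The gene whose log2 CPM was most like that of each member, among 10089 other genes with a mean over 50, was found over the same 20 mice. For Atp2a2 it was Sdha, a subunit of succinate dehydrogenase (r = 0.97), and for Ryr2 it was Huwe1, a ubiquitin ligase (r = 0.94), with Ttn next. Slc8a1 was most like D5Ertd579e (r = 0.97), Jph2 most like Sms, spermine synthase (r = 0.93), and Hrc most like Hdlbp (r = 0.92). Pln was most like Lclat1 and Asph most like Ptpn21 (both r = 0.92). The nearest genes to Casq2, Trdn and Camk2d were Ank1, Ankrd12 and Ctnna3, with r of 0.90, 0.90 and 0.89. For Asph a second gene, Kpna1, also reached 0.92.

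The annotation places 30 other genes across or inside the spans of the 10, of which 14 were listed in the count table and 12 were tested. Of the tested genes 10 lie on the same strand as the member, within Atp2a2, Casq2 and Camk2d. All 10 were lower in HF than in NP, with a median log2 fold change of -0.64, where 49.8% of all genes were higher. All 10 were higher in HF + LP than in HF, with a median of 0.58, as were 53.7% of all genes. The 6 nuclear RNAs were also all lower in HF (median -0.73) and all higher in HF + LP (median 0.39), and their part here was not tested. Only 1 of the 10 had an unadjusted p under 0.05 in either comparison, against 13.1% and 4.84% of all genes. Both comparisons use the same HF mice. In LP against NP 4 were higher and 6 lower, with a median of -0.0359, and in HF + LP against LP also 4 and 6, with a median of -0.0701. The 1 with such a p-value was Gm43359 (ENSMUSG00000105434, chr5:122482800-122484999), inside Atp2a2. Its counts were 775, 1162, 1233, 1235 and 1361 in NP and 502, 576, 594, 617 and 717 in HF. The groups did not overlap, as for 5.67% of all genes. The log2 fold change was -0.94 ± 0.22 (SE) with an adjusted p of 0.0384 (edgeR), and in HF + LP against HF it was 0.61 ± 0.22 (SE) with an unadjusted p of 0.0128. Over the 20 mice Gm43359 followed Ryr2 (r = 0.84) more closely than Atp2a2 itself (r = 0.29). On the opposite strand, Cep85l, which spans Pln, had 11.1 to 257.1 counts, and Clvs1, which meets the end of Asph, had 2.25 to 36.3. These levels are low beside the members they overlap.

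The wider calcium machinery was examined as a list of 107 genes, of which 105 were listed and 102 tested. By edgeR 0 were called in any comparison. With each mouse left out in turn, which was tried after the values were seen, 1 gene (Cacna1c) was called in HF against NP without LP animal 13 or LP animal 20, and 2 (Cacna1c and Rcn1) without HF + LP animal 3. DESeq2 called 4 in HF against NP (Cacna1c, Cacna1g, Speg and Rcn1) and 1 in HF + LP against LP (Cacna2d2), where it called 0.99% and 0.508% of all 15956 genes, and 0 in HF + LP against HF, in LP against NP and for the interaction. Unadjusted p-values under 0.05 were found for 16 genes in HF against NP (7 higher, 9 lower), 3 in HF + LP against HF (Itpr1, Pde4d and Cacna1c, all higher), 8 in LP against NP (2 higher, 6 lower) and 16 in HF + LP against LP (8 higher, 8 lower). These are 15.7%, 2.94%, 7.84% and 15.7% of the list, beside 13.1%, 4.84%, 7.23% and 15.9% of all genes. Leaving out LP animal 13 gave 6 in LP against NP and 18 in HF + LP against LP, and without LP animal 20 there were 3 in LP against NP. The count of 3 in HF + LP against HF became 1 without HF + LP animal 5 and 5 without HF + LP animal 3. The median log2 fold changes of the list were -0.0154, -0.0177, -0.0515 and 0.0386. Among the 14 genes of the L-type and T-type channels, through which calcium enters the cell, 2 (Cacna1c and Cacna1g) were lower and 0 higher in HF against NP at that threshold. Among the 9 calcium binding proteins of the endoplasmic reticulum lumen 3 (Rcn1, Calu and Sdf4) were higher and 0 lower. Of the 12 genes of mitochondrial calcium transport 1, Mcub, had such a p-value and was higher. The 15 tested partners of the release channel gave 1 higher and 2 lower. The 16 tested pumps, exchangers and entry genes of the surface membrane gave 0 higher and 2 lower. The 26 tested kinases, phosphatases and cAMP genes gave 1 higher (Rcan1) and 3 lower (Pde4d, Camk2g and Camk2a) and the 10 tested pump regulators and isoforms 1 higher (Mrln) and 0 lower. In LP against NP the same 10 gave 4 lower (Srl, Tmem38b, Strit1 and Hspb6) and 0 higher, which became 3 without LP animal 13 and 0 without LP animal 20. Genes of these groups beyond the 5 with the smallest p-values were named after their values were seen.

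Cacna1c, the pore of the L-type channel that triggers release through Ryr2, came nearest to a call. It had a mean of 839 ± 122.5 in HF, 1042 ± 195.2 in HF + LP, 1382 ± 81.2 in NP and 1254 ± 189.6 in LP (SD, n = 5 each). The HF mice, from 674 to 991, all lay under the NP mice, from 1296 to 1499. The log2 fold change was -0.72 ± 0.14 (SE) with an adjusted p of 0.0118 (edgeR). Speg, a kinase of the junction between surface membrane and store, had a log2 fold change of -0.59 (adjusted p = 0.0246, edgeR), and the T-type channel Cacna1g of -1.01 (adjusted p = 0.0284, edgeR). Rcn1, a calcium binding protein of the endoplasmic reticulum, was 0.43 higher on the log2 scale (adjusted p = 0.0324, edgeR), and Mrln, a micropeptide that inhibits the pump, 0.81 higher (adjusted p = 0.0581, edgeR) with a mean of 22.5 counts in NP and 39.5 in HF. Mrln was also higher in HF + LP than in LP, by 0.82 (adjusted p = 0.0828, edgeR), and by 0.88 without LP animal 13. Cacna2d2, a channel subunit, had the smallest p-value in HF + LP against LP, with a log2 fold change of -2.79 (adjusted p = 0.0583, edgeR), and its LP counts were 42.1, 48.1, 130.5, 309 and 771. The highest was that of LP animal 13, and without it the log2 fold change was -1.79 (adjusted p = 0.14, edgeR). The adipocyte and atrial markers were high in LP against HF + LP as well, and their part in this difference was not tested.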

How the data were processed

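The authors deposited raw read counts per Ensembl gene from QuantSeq 3′ libraries of 20 hearts, sequenced in 75 bp reads and aligned with BlueBee software. The submitters' processing notes name GRCm38 and DESeq2 1.22.2, and the read counter is not given in the sources used here. All 20 deposited count columns were matched to mice by library name. Symbols came from GENCODE M21 by Ensembl identifier, for 15917 of 15956 genes, and Strit1 was matched by a RefSeq synonym. The 13991 genes that passed edgeR's expression filter were scaled by TMM and fitted together in edgeR 4.0.16 (R 4.3.3) by quasi-likelihood over the 4 diets, with Benjamini-Hochberg adjustment over all of them. A call needed an adjusted p under 0.01 and a mean over 50, as in the study. The fit was also run on simulated data, and the share of simulated differences it found is not reported here. DESeq2 1.42.0 and other scalings, filters and left-out mice were tried. The members and all gene lists were chosen with earlier results of these data known. Named were the 10 members, listed genes inside their spans, the most correlated gene of each member, up to 5 genes of the wider list per comparison by p-value, and marker sums. The edgeR p-values weigh a difference against the spread between mice, estimated over the 4 diets together, although the spread was widest in LP. Libraries held 12559607 to 23331907 counts. Some genes and groups of the wider list are not reported here.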

Additional observations from a re-analysis of the deposited data

Results flagged for a closer look

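There were 3 values that lay far from the other 4 mice of their diet, by the gap to the nearest mouse as a share of the group's range (over 0.71). Atp2a2 was highest in HF animal 4, at 80009 normalized counts against 73458 in the next mouse. Trdn was lowest in LP animal 13, at 5476 against 10864 in the next, and that library also gave the lowest count of 5 other members. Slc8a1 was highest in LP animal 5, at 160.5 against 49.1 in the next. Of 44 groups of 5 mice examined 3 met the limit, and about 1 in 20 does so by chance.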

How the results depend on the processing

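No member was called under any of the 178 combinations of comparison and alternative, which covered size factors, DESeq2, filters, thresholds, the library-name number as a covariate, the scaling to cardiomyocyte markers, the 2 groups alone and each mouse left out. Of 166 refits of the 6 member differences with an unadjusted p under 0.05, 164 kept their direction. The exceptions came with the scaling to cardiomyocyte markers, which gave 0.0187 for Camk2d in HF against NP and -0.00314 for the interaction of Pln. The adjusted p of Ryr2 in HF against NP ranged from 0.0568 (DESeq2) to 0.25. The count of members with an unadjusted p under 0.05, with each mouse left out in turn, ranged from 1 to 2 in HF against NP, 0 to 1 in HF + LP against HF, 0 to 5 in LP against NP, 0 to 4 in HF + LP against LP, 0 to 4 for the interaction and 0 to 1 for any diet difference. With the animal number as a replicate block 0 members were called, and the members' median turned from 0.22 to -0.0653 in HF + LP against LP (5 of 10 above 0), and moved from -0.20 to -0.0602 in LP against NP (4 above 0) and from 0.32 to 0.15 for the interaction (7 above 0). Animal numbers mark different mice, and the deviations of same-numbered mice correlated from -0.556 to 0.475. Each HF mouse also had the same library-name number as the HF + LP mouse of its animal number. Whether same-numbered mice share more than these labels was not tested. For the Pln to Atp2a2 log2 ratio the difference of medians was -0.11 in HF + LP against HF and 0.0278 in LP against NP, both opposite to the means, 0.0181 and -0.0648. The replicate block turned HF + LP against LP from 0.17 to -0.14 over 2 pairs. Leaving out each mouse gave 0.0574 to 0.137 in HF against NP, -0.0532 to 0.0729 in HF + LP against HF, -0.115 to 0.0193 in LP against NP and 0.0873 to 0.226 in HF + LP against LP. The causes were not tested. The most correlated gene was the same for 5 members (Spearman), 5 members (centred on the diet group mean), 10 members (RLE size factors). Among the members Slc8a1 had the fewest counts, 12 to 160 in a library. In the wider list edgeR called 0 genes in HF against NP and DESeq2 4.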
